A study of Saccharomyces cerevisiae with 2 samples.

Results

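The GAL genes of Saccharomyces cerevisiae, with the noncoding transcripts in and around them, were described in RNA bound to the nuclear cap binding complex at 6 h of meiosis. The 7 genes GAL1, GAL2, GAL3, GAL4, GAL7, GAL10 and GAL80 were taken by name, which gave 7 of the 6698 ORFs counted, by a rule that uses no measured value. All 219 segments of 100 bp that overlap a window from 800 bp before to 800 bp after 1 of these ORFs were added, out of 121500 segments of the genome, so that the whole GAL7-GAL10-GAL1 cluster was included. The study asked which transcripts build up in meiotic cells that lack Trf4, a poly(A) polymerase of the TRAMP complex, which hands nuclear RNA to the exosome for degradation. RNA was purified through a TAP tag on Cbc2, a subunit of the cap binding complex, and sequenced in 1 library per genotype. Both strains were SK1 diploids, homozygous for CBC2-TAP-TRP1 and carrying trp1::hisG, leu2::hisG, his3::hisG, ura3 and lys2 ho::LYS2. The trf4Δ strain was in addition homozygous for trf4::NatMX6. Cells were pre-grown in glucose and then in acetate, wild type and trf4Δ from different starting densities, and sporulated in medium with potassium acetate and raffinose, in which no galactose is listed. The sugar that induces these genes was thus not among the listed components of the medium.

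Galactose is turned into a glucose phosphate by the Leloir pathway. Gal2 brings the sugar into the cell, the kinase Gal1 phosphorylates it, the transferase Gal7 makes UDP-galactose from the product, and the epimerase Gal10 turns UDP-galactose into UDP-glucose. Gal4 is the activator that binds upstream of these genes, Gal80 binds Gal4 and keeps it silent, and Gal3 takes Gal80 away from Gal4 once galactose is sensed. The loci are also a well known place for noncoding transcription: in cells on glucose an antisense RNA starts inside the 3′ part of GAL10, next to a site for the factor Reb1, and runs towards GAL1. RNAs that are degraded by the nuclear exosome soon after they are made, and that become visible without Trf4, are called cryptic unstable transcripts (CUTs).

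The median segment had 32 reads in wild type and 28 in trf4Δ, and the segments summed to 22.1 M and 29.7 M reads. Wild-type reads scaled up to the trf4Δ total are called normalised reads, whereas reads without that word are as counted. Fold and log2 differences use normalised reads. The U1 snRNA gene took 15.5% of the segment reads in wild type and 21.8% in trf4Δ. The deletion was visible at TRF4, listed as PAP2, where 346 wild-type reads stood against 1 in trf4Δ. That is 155-fold fewer after normalisation with the 1 read set to a floor of 3. By counting error the fold, trf4Δ over wild type, was at most 0.0121. The meiosis genes DMC1, HOP1, SPO11 and NDT80, which check the label of meiotic cells, had 16711, 3496, 1455 and 1570 reads in wild type and 9479, 1796, 2433 and 700 in trf4Δ, so all were detected in both libraries. With 1 library per genotype no difference had a replicate check and none was tested. The intervals given are 95% intervals of counting error only. Those of summed segments are too narrow even for that, since reads at segment borders appear to be counted in both neighbours. Lane and genotype cannot be told apart either, since each library had its own lane. In bulk cultures, fewer cells with a transcript and less of it per cell cannot be told apart. The library steps described in the paper include none that marks strand, and counting is not stated to have used it. Reads of a gene and of a transcript antisense to it therefore cannot be told apart. With equal totals the median ORF had a log2 difference, trf4Δ over wild type, of -0.97. If the median difference of well covered segments is set to 0 instead, every log2 difference moves up by 0.96. Differences are therefore also given relative to the median ORF.

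In wild type the GAL ORFs other than GAL10 had fewer reads per kb than the median ORF, whereas in trf4Δ GAL3, GAL2 and GAL80 were close to it. By normalised reads per kb of ORF, wild type had 1473 on GAL10, 400 on GAL80, 267 on GAL2, 252 on GAL7, 165 on GAL4, 158 on GAL1 and 139 on GAL3. In trf4Δ the order was GAL3 with 529 reads per kb, GAL2 with 484, GAL80 with 446, GAL10 with 352, GAL7 with 99.0, GAL4 with 96.0 and GAL1 with 86.3. The median ORF had 729 normalised reads per kb in wild type and 493 in trf4Δ. GAL10 was the only member above the median ORF in wild type, and GAL3 the only one in trf4Δ. In wild type the counting intervals of the neighbours GAL2 and GAL7 overlapped, as did those of GAL4, GAL1 and GAL3. In trf4Δ those of GAL3 and GAL2 overlapped, those of GAL2 and GAL80, and those of GAL7, GAL4 and GAL1.

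**Figure D1:**
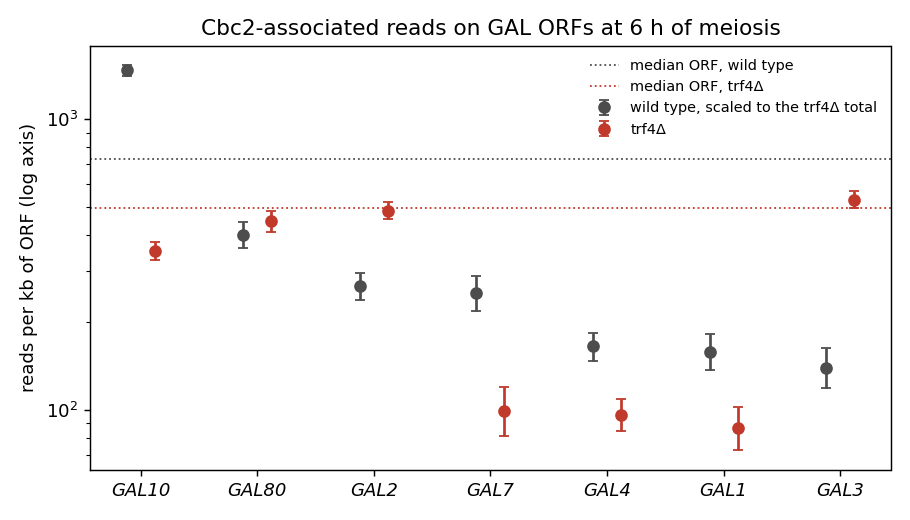
Reads per kb of ORF (log axis) of the 7 GAL genes in the wild-type library, scaled to the trf4Δ total, and in the trf4Δ library, ordered by the wild-type level. Points are 1 library each, bars are 95% Poisson intervals of counting error, and dotted lines mark the median ORF of each library at 729 and 493 reads per kb. GAL10 had 1473 and 352 and GAL3 139 and 529, whereas GAL1 and GAL4, lower in trf4Δ here, have differences above 0 when the median segment difference is set to 0.

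With equal totals the largest differences among the members were in opposite directions, at GAL3 and at GAL10, whereas relative to the median ORF the largest were at GAL3 and GAL2, both higher in trf4Δ. GAL3, the galactose sensor, had 162 reads in wild type and 827 in trf4Δ, a log2 difference of 1.92 (1.68 to 2.18) and 2.90 relative to the median ORF. At GAL2, the galactose permease, 342 and 835 reads gave a log2 difference of 0.86 (0.68 to 1.05), or 1.83 relative to the median ORF. At GAL80, the inhibitor, 389 and 583 reads gave a log2 difference of 0.16 with an interval that spans 0 (-0.03 to 0.35), or 1.13 relative to the median ORF. GAL3, GAL2 and GAL80 lay above 0 under each of the scalings tried. At GAL10, the epimerase, 2300 and 739 reads gave a log2 difference of -2.07 (-2.19 to -1.95), 4.19-fold lower in trf4Δ, and -1.09 relative to the median ORF. At GAL7, the transferase, 206 and 109 reads gave a log2 difference of -1.35 (0.309 to 0.499 as a fold). GAL10 and GAL7 stayed below 0 under each scaling. At GAL1, the kinase, 187 and 137 reads gave a log2 difference of -0.88, which turned to 0.08 when the median segment difference was set to 0. At GAL4, the activator, 325 and 254 reads gave a log2 difference of -0.78, which turned to 0.18 in the same way. Relative to the median ORF, GAL1 lay at 0.10 and GAL4 at 0.19, so that both moved about as the median ORF did.

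The GAL ORFs past a cut-off of more than 4-fold, that of the study, were counted beside the share of all ORFs. With 7 genes, nothing about the members is read from how these counts compare with the shares. All 7 were among the 6246 ORFs compared, those with log2 reads above 6 in at least 1 library. More than 4-fold higher in trf4Δ were 0 of 7 GAL ORFs, with 8.09% of all ORFs compared, GAL3 lying just below it at 3.80-fold. More than 4-fold lower was 1 of 7, GAL10, with 10.6% of all ORFs compared. With the median segment difference at 0, GAL3 was the 1 member past the cut-off, at a log2 difference of 2.88, and 15.0% of ORFs were higher and 0.224% lower. Leaving U1 reads out of the totals also put GAL3 past it, at 2.04, and GAL10 short of it, at -1.95, with 8.87% of ORFs higher and 7.78% lower. The median of the 7 members was -0.78, beside -0.97 for all ORFs compared, and 5 of 7 lay above the median ORF. The members were thus spread around the median ORF. Of the 219 segments, 32 (14.6%) exceeded wild type by more than 4-fold in trf4Δ, with 10.3% of all segments, and 22 (10.0%) were more than 4-fold lower, with 13.3% of all segments. Of the 32 higher segments, 17 lay in the window of GAL3, 5 in that of GAL2, 4 each in those of GAL4 and GAL7 and 2 in that of GAL80, while the windows of GAL10 and GAL1 had 0. No floor was applied to single segments, so some of these calls rest on counts near 0. In the window of GAL7, the higher segments 274201 to 274300 and 274301 to 274400 had 1 wild-type read each, against 15 and 13 in trf4Δ. The lower segment 275701 to 275800 had 3 and 0 reads. Neighbouring segments share reads and are not replicates of each other.

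CUTs were called by the steps of the study, as joined segments in which trf4Δ exceeded normalised wild type by more than 4-fold, at least 300 bp in size and with a mean log2 read count above 6 in trf4Δ. There were 1575 in the genome, and 5 of them overlapped a GAL window, 3 at GAL3 and 1 each at GAL2 and GAL4. These 3 of 7 genes with a CUT in the ORF or within 800 bp stand beside 44.3% of the nuclear ORFs. A CUT lay over the ORF itself at 2 of 7, GAL2 and GAL3, beside 18.5% of the nuclear ORFs. With the roles of the libraries exchanged, 1 region was called, at the 3′ end of GAL10. It lay in the windows of 2 of 7 genes, GAL10 and GAL7, beside 39.8% of the nuclear ORFs with such a region within the same distance. With 7 genes, 1 gene more or less moves such a share by more than these gaps, and nothing is read from them.

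In the cluster on chromosome II, GAL7 and GAL10 are read leftwards and GAL1 rightwards from the promoter it shares with GAL10. From the end of GAL7 to the end of GAL1 (274427 to 280607 in the SGD1.01 coordinates of the files) the segments held 4017 reads in wild type and 1591 in trf4Δ, 3.39-fold fewer after normalisation. Segments with their midpoint in GAL10 held 68.0% of the cluster reads in wild type and 59.0% in trf4Δ. GAL10 was thus the main source of cluster reads in both libraries.

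The reads of GAL10 formed 2 blocks with a dip between them, and the dip ends at the annotated start of an antisense RNA. The block at the 3′ end of the ORF (276201 to 276500) had 1618 reads in wild type and 344 in trf4Δ, 6.32-fold fewer, and was the region called as higher in wild type. Its highest segment (276301 to 276400), with 678 and 134 reads, was the highest of all GAL10 and GAL7 window segments in both libraries. The stretch between the blocks (276501 to 276800) had 134 and 65 reads. At 44.7 and 21.7 per 100 bp it was not empty, beside 32 and 28 in the median segment. From 276801 to 277400 there were 889 and 375 reads, and from there to the start codon 596 and 273. The current R64 annotation places an antisense RNA, YNCB0008W, on the plus strand from 276805 to 280645, across the rest of GAL10 and all of GAL1. Reads per 100 bp went from 44.7 before this start to 148 after it in wild type, a 3.32-fold step, and from 21.7 to 62.5 in trf4Δ, a 2.88-fold step. The step was thus present in both libraries, at the same segment border. Over the whole length of YNCB0008W there were 1852 reads in wild type and 894 in trf4Δ, a log2 difference of -1.48, below 0 under each scaling, so that more reads without Trf4 were not seen there. Which of the reads were antisense and which were GAL10 mRNA cannot be told apart.

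A match to the core letters of a Reb1 site lies just upstream of that start, inside the GAL10 ORF, in the stretch between the blocks. Its sequence up to the first bases of YNCB0008W is shown because the step of reads in both libraries lies at its right end (R64, plus strand, chrII:276627-276829). Capitals mark the Reb1 letters. The second sequence is the highest segment of the 3′ block, in lower case throughout since no part of it is singled out (R64, plus strand, chrII:276301-276400). Both were read from the S288C reference of RefSeq, where the cluster has the same coordinates as in the files, and SK1 may differ in single bases.
Reb1 site to the start of YNCB0008W: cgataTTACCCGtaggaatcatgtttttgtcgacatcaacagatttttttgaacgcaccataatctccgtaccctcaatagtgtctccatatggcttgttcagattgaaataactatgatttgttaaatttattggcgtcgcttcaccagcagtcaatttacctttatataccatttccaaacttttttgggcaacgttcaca
GAL10 highest segment: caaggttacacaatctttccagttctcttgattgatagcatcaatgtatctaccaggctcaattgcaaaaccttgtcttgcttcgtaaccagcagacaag
The letters TTACCCG were searched on both strands and occurred 1 time in the GAL10 window, at 276632 to 276638. They occurred in 12.3% of 5740 windows of the nuclear genome as long as the GAL10 ORF, so a match in an ORF of this length is not rare.

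**Figure D2:**
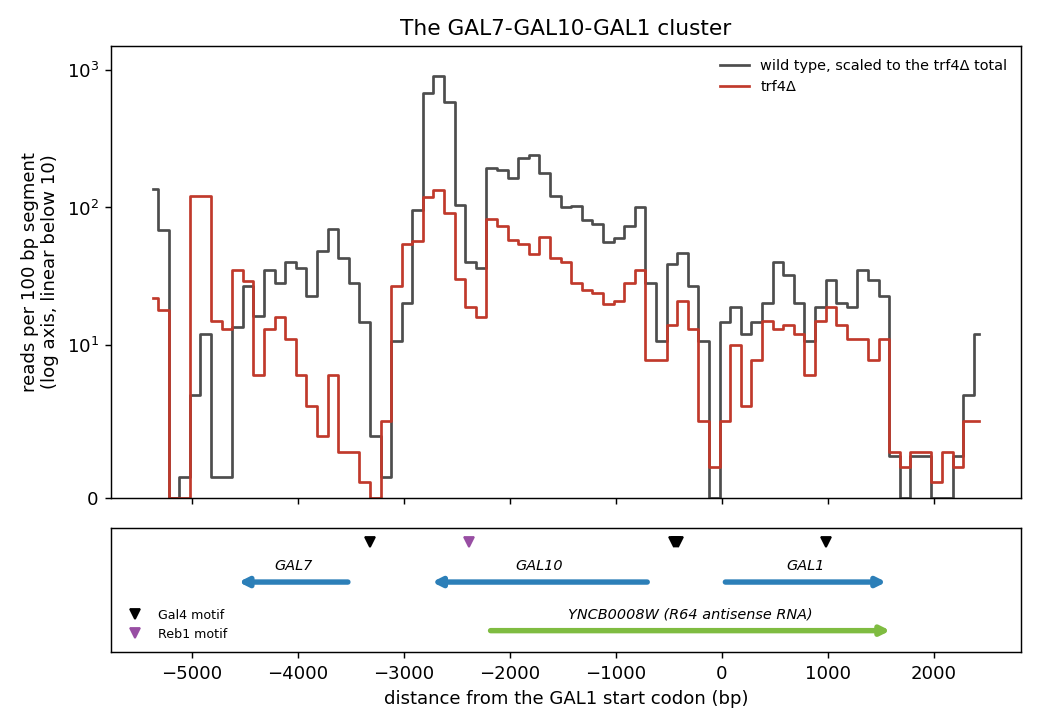
Reads per 100 bp segment (log axis, linear below 10) across the GAL7-GAL10-GAL1 cluster, by distance in bp from the GAL1 start codon, in the wild-type library scaled to the trf4Δ total and in the trf4Δ library. Arrows show the ORFs and the R64 antisense RNA YNCB0008W, and triangles mark matches to the Gal4 and Reb1 letters. The 3′ block of GAL10 reaches 911 normalised reads in wild type and 134 in trf4Δ, both lines step up at the start of YNCB0008W, and trf4Δ is the higher line just beyond the stop codon of GAL7, with wild type higher again farther on.

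Along GAL10 the difference between the libraries was largest at the 3′ end. When the ORF was cut into 5 equal parts, the part at the stop codon held 44.6% of the wild-type reads (42.7 to 46.5%, binomial interval) and 29.2% of the trf4Δ reads (26.3 to 32.2%). These parts leave out the segment 276201 to 276300 of the 3′ block, with 507 and 119 reads, whose midpoint lies just beyond the stop codon. The log2 differences of the parts were -1.50, -1.62, -1.92, -1.34 and -2.58 from the start codon to the stop codon. Without the 3 segments of the 3′ block, GAL10 had a log2 difference of -1.61 by summed segments. With the segments whose midpoint lies in the ORF, so still without 276201 to 276300, it was -1.97. GAL10 was thus just short of 4-fold by these segments and just past it by the ORF table. The ORF table had 2300 wild-type reads on GAL10, while its segments, in which reads at a border appear to be counted in both neighbours, summed to 2730.

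In trf4Δ, GAL7 had fewer reads at its 5′ side and more just beyond its 3′ end. The ORF on the start-codon side of its midpoint had 164 segment reads in wild type and 29 in trf4Δ, 7.60-fold fewer. On the stop-codon side there were 119 and 112, 1.43-fold fewer after normalisation, a direction that flips with the median segment difference at 0. Consecutive low segments ran from the GAL7 promoter into the ORF (275201 to 275800), with 155 and 19 reads, a log2 difference of -3.45. Between the stop codon of GAL7 and the start codon of KAP104, an importin gene read in the same direction, the segments from 274001 to 274400 had 16 reads in wild type and 272 in trf4Δ, 12.7-fold more (7.65 to 22.5). Its mean level was below the noise cut-off of 6, so it was not counted as a CUT. KAP104 itself had 435 and 579 reads, a log2 difference of -0.01, and thus lay above the median ORF. Between GAL10 and GAL7 (275528 to 276252) there were 637 and 266 reads, of which 507 and 119 lay in the segment at the GAL10 stop codon (276201 to 276300), which is part of the 3′ block.

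The promoter shared by GAL1 and GAL10 had fewer reads per segment than the median segment in both libraries, at about the level of the GAL1 ORF. Its 668 bp (278353 to 279020) held 100 reads in wild type and 64 in trf4Δ, or 16.7 and 10.7 per 100 bp, against 32 and 28 in the median segment. The segments with its Gal4 sites (278501 to 278700) had 29 and 35 reads in wild type and 14 and 21 in trf4Δ, close to the median segment in wild type. The log2 difference was -1.07, and -0.11 with the median segment difference at 0. The segment next to the GAL1 start codon (278901 to 279000) had 0 and 2 reads, at or under the limit of 3 reads that a count of 0 allows. GAL1 itself had 129 and 84 segment reads on the start-codon side of its midpoint and 138 and 98 on the other. Within these sides the wild-type reads were uneven, with 12.7% (8.98 to 17.3%) in the first of 5 equal parts and 30.0% (24.5 to 35.8%) in the next. Beyond its stop codon there were 13 and 22 reads in 800 bp. No segment of the GAL1 window was more than 4-fold different in either direction.

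The Gal4 sites of that promoter and of GAL2 are shown because no other gene had 3 or more such sites upstream (R64, plus strand, chrII:278548-278741 and chrXII:289786-289910). Capitals mark the outer letters of each match to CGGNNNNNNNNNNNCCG.
GAL1-GAL10 promoter, Gal4 sites: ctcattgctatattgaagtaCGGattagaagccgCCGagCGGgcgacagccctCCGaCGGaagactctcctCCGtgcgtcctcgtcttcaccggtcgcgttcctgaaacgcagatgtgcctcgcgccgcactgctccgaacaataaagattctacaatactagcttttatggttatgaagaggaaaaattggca
GAL2 promoter, Gal4 sites: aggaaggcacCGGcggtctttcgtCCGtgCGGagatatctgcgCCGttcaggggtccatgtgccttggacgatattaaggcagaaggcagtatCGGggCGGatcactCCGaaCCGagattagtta
The motif reads the same on both strands. It occurred in the 800 bases before 4.84% of 5997 genes, and 3 or more times before only 3 of them, GAL1 and GAL10 with the same 3 matches and GAL2 with 5, of which 2 overlap. GAL3, GAL7 and GAL80 had 1 match each upstream, at 288, 192 and 172 bases from the start codon. GAL4 had 1, which lay 470 bases upstream inside the neighbouring ORF YPL247C. A match is a description of the letters and says nothing about whether Gal4 was bound in these cells.

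GAL3, the sensor, had the highest number of segments past 4-fold and 3 CUTs. The first lay between TRP1 and GAL3 (chromosome IV, 462601 to 463100, from 830 to 331 bp before the start codon) and had 534 reads in wild type and 9413 in trf4Δ, 13.1-fold more. Its 5 segments had 65, 193, 151, 91 and 34 reads in wild type and 1440, 3782, 2701, 1196 and 294 in trf4Δ. All 5 were higher in trf4Δ, and the segment with 3782 reads was the highest of any GAL window. The level was back at 33 reads in trf4Δ in the next segment, so that this CUT ended well before the GAL3 start codon. The second CUT (464201 to 465000) covered the 3′ part of the ORF, with 128 and 1012 reads, 5.88-fold more. The third (465401 to 465800) lay between YDR010C and SNQ2, with 122 and 1319 reads, 8.05-fold more.

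The reads of GAL3 in trf4Δ thus did not come evenly from its ORF. On the start-codon side of the midpoint the ORF had 102 segment reads in wild type and 108 in trf4Δ, a log2 difference of -0.34 whose interval in folds (0.596 to 1.04) includes 1, and which is above 0 with the median segment difference at 0. On the stop-codon side it had 128 and 1012, a log2 difference of 2.56. The higher ORF value of GAL3 therefore rested on the CUT over its 3′ part. The small ORF YDR010C just beyond, on the other strand, had 34 and 99 reads, a log2 difference of 1.11.

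The first segment of the upstream CUT overlaps the end of ARS1, the replication origin beside TRP1. The stretch from ARS1, in capitals, to the end of the highest segment is shown (R64, plus strand, chrIV:462567-462803, where R64 positions are 3 higher than those of the files).
ARS1 to the end of the highest TRP1-GAL3 segment: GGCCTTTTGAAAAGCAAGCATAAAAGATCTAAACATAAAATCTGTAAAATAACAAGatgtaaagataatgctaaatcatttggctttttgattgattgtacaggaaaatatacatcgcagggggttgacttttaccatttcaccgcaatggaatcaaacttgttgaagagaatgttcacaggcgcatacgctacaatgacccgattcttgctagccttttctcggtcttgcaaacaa
Both strains carried trp1::hisG at this locus and a TRP1 marker beside the TAP tag, and TRP1 had 1371 reads in wild type and 1049 in trf4Δ, a log2 difference of -0.81 that is above 0 with the median segment difference at 0. How far the disruption or the marker reaches towards GAL3 is not given in the sources used here, so reads of the native locus and of the marker cannot be told apart close to TRP1. Both genotypes shared these alleles.

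GAL2, the permease, had more reads in trf4Δ at both ends of its ORF and fewer in the part of its promoter that holds the Gal4 sites. The CUT over its start codon (chromosome XII, 290001 to 290300, from 212 bp before to 87 bp after the start of the ORF) had 28 reads in wild type and 356 in trf4Δ, 9.46-fold more (6.44 to 14.4). Near the stop codon (291701 to 291900) there were 27 and 390 reads, 10.8-fold more, too short to be called. The promoter segments from 289701 to 290000, which contain 4 of the Gal4 matches, had 91 and 16 reads, 7.64-fold fewer. Between these ends the ORF was lower in trf4Δ, with a log2 difference of -0.87 in the middle of 5 equal parts, which is above 0 with the median segment difference at 0, against 1.39 in the first and 2.20 in the last. Farther upstream, towards EMP46, the highest segment of the window in both libraries (289501 to 289600) had 224 and 437 reads. SRL2, which faces GAL2 from downstream, had 238 and 104 reads, a log2 difference of -1.62.

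GAL4, the activator, had few reads over its ORF in both libraries and a CUT directly upstream. The CUT (chromosome XVI, 82401 to 82800, from 444 to 45 bp before the start codon) ran from the 3′ end of YPL247C, a gene in tandem with GAL4, into the space before GAL4, with 177 reads in wild type and 2619 in trf4Δ, a log2 difference of 3.46. Its highest segment in trf4Δ (82601 to 82700) had 80 and 1393 reads. The 268 bp between the ORFs (82357 to 82624) alone had 10 and 350 reads, 26.0-fold more, a value that rests on the 10 wild-type reads and has an upper limit of 54.8-fold. YPL247C had 1279 and 2727 reads, a log2 difference of 0.66, which includes the part of the CUT over its 3′ end. The CUT segments there had 80 and 1393 reads (82601 to 82700) and 87 and 876 (82701 to 82800). The value thus does not describe the rest of YPL247C. Inside GAL4 the middle of 5 equal parts had 55 and 22 reads and the last part 108 and 154. An antisense RNA of R64, YNCP0002W, runs over GAL4 from 79562 to 82648 and had 486 and 779 reads, a log2 difference of 0.25. Since 350 of its trf4Δ reads lay in the space before GAL4, within the CUT, the value does not describe the antisense RNA over the ORF, where 460 and 345 segment reads were counted. Near its annotated start, trf4Δ was the higher library, with 16 and 84 reads (79601 to 79700) and 19 and 69 (79701 to 79800). GYP5, downstream of GAL4, had 213 and 581 reads, a log2 difference of 1.02.

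At GAL80, the inhibitor, the difference between the libraries changed along the ORF. On the start-codon side of the midpoint it had 255 segment reads in wild type and 185 in trf4Δ, a log2 difference of -0.89 that is above 0 with the median segment difference at 0. On the stop-codon side it had 257 and 547, a log2 difference of 0.66. At the stop codon and beyond (chromosome XIII, 172901 to 173100) there were 83 and 716 reads, 6.42-fold more (5.11 to 8.16), over a stretch too short for a CUT. The highest segment there (172901 to 173000) had 62 and 468 reads. In wild type the highest segment of the window lay farther on (173201 to 173300), inside YML050W, with 174 and 84 reads. YML050W had 600 and 301 reads, a log2 difference of -1.42, and SUR7 upstream had 616 and 444, a log2 difference of -0.90 that is above 0 with the median segment difference at 0. Only these 2 segments of the GAL80 window were past 4-fold in that direction.

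**Figure D3:**
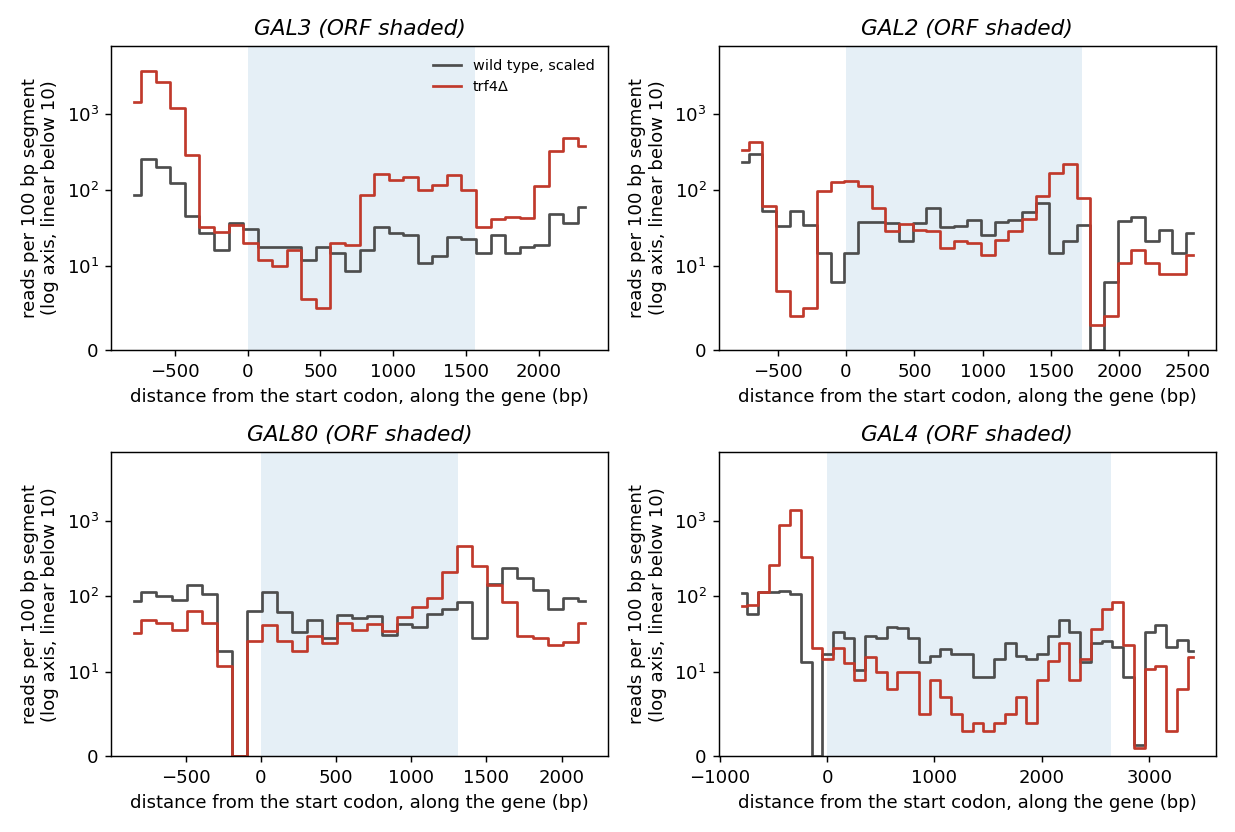
Reads per 100 bp segment (log axis, linear below 10) in the windows of GAL3, GAL2, GAL80 and GAL4, by distance in bp along the gene from the start codon, in the wild-type library scaled to the trf4Δ total and in the trf4Δ library, with the ORF shaded. The trf4Δ peaks stand before GAL3 (3782 reads) and GAL4 (1393 reads), over the start of GAL2 and at the 3′ ends of GAL2 and GAL80 (468 reads).

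Reads towards the stop codon were relatively more frequent in trf4Δ at several of the genes, a measure chosen after the profiles had been seen. The log2 difference of the last of 5 equal parts of the ORF, minus that of the middle part, was 3.07 at GAL2, 2.68 at GAL7, 1.83 at GAL4 and 1.63 at GAL80. It was 0.40 at GAL3, -0.66 at GAL10 and -0.99 at GAL1. At GAL3 the log2 difference had already gone from -0.65 in the first part to 2.22 in the middle part, a rise that this measure leaves out. The 4 of 7 genes above 1 stand beside 35.3% of 3367 ORFs, whose own medians went from -1.35 in the first part to -0.64 in the last. These 3367 were at least 1000 bp long and had at least 20 normalised reads in every part in at least 1 library. A shift towards the stop codon was thus seen over ORFs in general, and this difference between 2 parts of 1 ORF does not depend on the scaling.

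**Figure D4:**
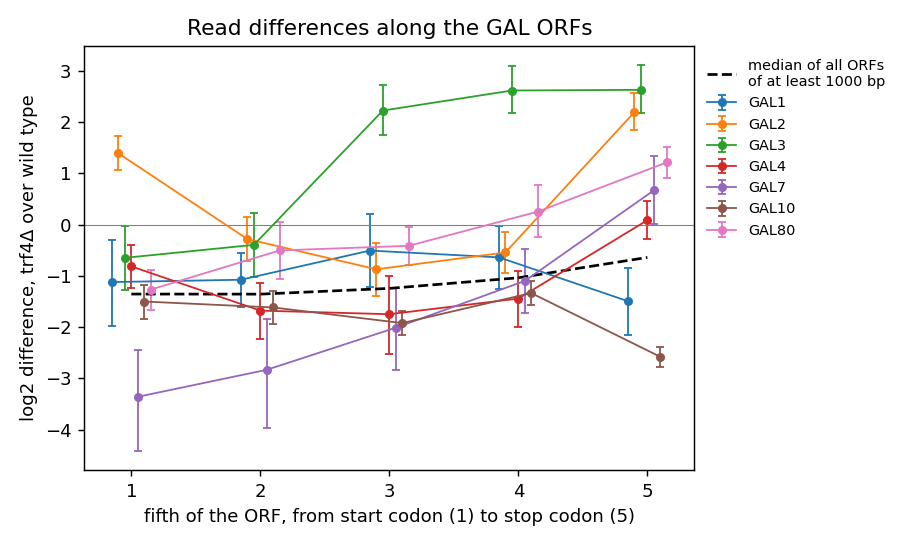
Log2 difference of segment reads, trf4Δ over wild type scaled to the same total, in 5 equal parts of each GAL ORF from the start codon (1) to the stop codon (5). Bars are 95% intervals of counting error in 1 library per genotype, too narrow because reads at segment borders appear to be counted in both neighbours. The dashed line, from -1.35 to -0.64, is the median of ORFs of at least 1000 bp with at least 20 normalised reads in every part in at least 1 library. GAL3 is above 2 from part 3 on, GAL2, GAL4, GAL7 and GAL80 are higher in part 5 than in part 3, and GAL10 and GAL1 are lowest in part 5. With the median segment difference at 0 all points move up by 0.96.

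Upstream flanks of ORFs were less low in trf4Δ than the ORFs over the whole genome, with medians of -0.20 for the 800 bp upstream, -0.98 for the ORF and -0.83 for the 800 bp downstream. The GAL genes fell on both sides of these values. The upstream flank had 11.9-fold more reads in trf4Δ at GAL3 and 4.95-fold more at GAL4, while it was 1.47-fold higher at GAL2. Over the genome, 17.8% of the 6379 upstream flanks compared were more than 4-fold higher, so being past 4-fold was not rare. The share of flanks as far up as that of GAL3 was not computed. At GAL80, GAL1, GAL10 and GAL7 the upstream flank had log2 differences of -1.21, -1.29, -1.09 and -1.69. Flanks hold parts of neighbouring genes, and those of GAL10 and GAL1, and of GAL10 and GAL7, overlap.

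Other genes of galactose use, of glucose repression and of hexose transport were compared as lists. Of 6 further genes of the pathway or with a GAL name, 0 were past 4-fold in either direction and the median log2 difference was -1.09, beside -0.97 for all ORFs. PGM2, the phosphoglucomutase that completes the pathway, had 5552 and 7634 reads, a log2 difference of 0.03. Of 18 genes of glucose repression and its release, 0 were past 4-fold with equal totals, with a median of -0.67. NRG1 (log2 difference 1.72), NRG2 (1.47) and GLC7 (1.26) are past it, higher in trf4Δ, with the median segment difference at 0. Of 10 general regulators that act at GAL loci, among them REB1, 0 were past 4-fold with equal totals, with a median of -1.27. NRD1, at 1.91, is past it with the median segment difference at 0 and also with U1 reads left out of the totals. Of 19 hexose transporters and sensors listed, relatives of GAL2, HXT12 was not matched, and HXT6, HXT15 and HXT16 had too few reads to be compared. Among the 15 tested, 2 were more than 4-fold higher in trf4Δ with equal totals and 0 lower, with a median of -0.63. These were HXT3, a low-affinity glucose transporter, with 2093 and 20010 reads and a log2 difference of 2.83, and RGT2, a glucose sensor, with 2081 and 14223 reads and 2.35. HXT4 (1.99) and HXT1 (1.59) are past 4-fold as well with the median segment difference at 0, HXT4 also without U1 reads. The 8.09% and 10.6% of all ORFs past 4-fold are the background of the counts with equal totals. With the median segment difference at 0 the background is 15.0% higher and 0.224% lower.

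The ORFs nearest to GAL1 by log2 reads per kb in the 2 libraries were HOS3, CRT10 and MSH6, all within 0.03 on the log2 scale. Those nearest to GAL7 were TRM8, PKH3 and UGO1, and those nearest to GAL10 were SMM1, RPL12B and CDS1. With 2 libraries as the 2 points, likeness says only that these ORFs had the same levels.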

How the data were processed

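Cbc2-associated RNA was fragmented, reverse transcribed from random hexamers and sequenced, 1 library per genotype. Per the labels, the authors used Trim Galore 0.3.5 and Bowtie 0.12.7. They deposited log2 read counts per 100 bp segment, with 0.9 in place of 0, and log2 read counts per ORF, with wild type multiplied by 1.345. The mapping behind these tables is not stated in them.

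Read counts were obtained by inverting the log2 transformation, and 139 segments of rDNA were left out. Wild-type segment reads were multiplied by 1.344 to equal totals. Segments of regions were assigned by midpoint, and reads at segment borders appear to be counted in both. Intervals were 95% intervals, Poisson for levels and binomial for folds and shares. Those of summed segments treat reads counted in both neighbours as separate reads and are thus too narrow. For folds, counts of 3 reads or fewer were set to a floor of 3. The steps were tested on simulated data. Motifs and sequences came from RefSeq R64, placed through the genes, as the files use SGD1.01.

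Members and lists were chosen with earlier results of these data known. Named were the 7 members, ORFs and CUTs in their windows, the highest segment of each window, list genes past 4-fold, the 3 ORFs nearest to GAL1, GAL7 and GAL10, and PAP2. PGM2, REB1, TRP1, DMC1, HOP1, SPO11, NDT80, EMP46 and SNQ2, and the runs of segments not called as CUTs, were added after their values were seen. So were the list genes that are past 4-fold only under another scaling. Scripts ran under Python 3.11.15 with scipy 1.17.1 (intervals), pandas 2.3.3, numpy 2.4.6 and matplotlib 3.10.9 (figures).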

Additional observations from a re-analysis of the deposited data

How the results depend on the processing

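No paired analysis was possible because each genotype had 1 library, and leaving out a replicate was not run for the same reason. Depth limits the GAL4, GAL1 and promoter values, which rest on few reads per segment.

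With the median log2 difference of the well covered segments set to 0, the median of the GAL ORFs was 0.18 instead of -0.78, 1 GAL ORF was more than 4-fold higher in trf4Δ and 0 lower, the GAL1-GAL10 promoter was at -0.11 instead of -1.07, and the 49 genes tested in the 4 lists together (galactose use, glucose repression, general regulators and hexose transporters) had a median of 0.14 instead of -0.82. These moves follow from the scaling. Leaving U1 reads out of the totals gave 1 GAL ORF higher and 0 lower (8.87% and 7.78% of all ORFs), and summed segments in place of the ORF table gave 0 lower (11.1%). A 2-fold cut-off gave 1 ORF higher (15.3% of all ORFs), 2 ORFs lower (49.0%) and 49 segments higher (17.2% of all segments). An 8-fold one gave 0 ORFs lower (0.176%), 19 segments (5.50%) and 2 CUTs (985 in the genome). A noise cut-off of 7 left 3 CUTs (1354 in the genome). The other alternatives gave 4 to 6 CUTs and 24 to 48 higher segments. The 48 came with the median segment difference at 0 and the 24 with windows of 400 bp on either side. Matching shares over the genome were not computed for these alternatives, so nothing is read from their counts. For GAL10, 3 alternatives were added after the data had been seen: its log2 difference was -1.61 without the 3′ block, -1.11 with the median at 0 and -1.95 without U1 reads.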
